A study of Mus musculus with 9 samples.

Results

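The genes described here are those of the MHC class II pathway and CIITA, its master activator, 10 of the 34745 genes in the deposited expression table. They were taken by gene name and are H2-Aa, H2-Ab1, H2-Eb1, Cd74, H2-DMa, H2-DMb1, H2-DMb2, H2-Oa, H2-Ob and Ciita. Each name occurred once, and all 10 genes passed the filter on low counts that left 14506 genes for testing. RNA was sequenced from 9 subcutaneous tumours grown from LLC (Lewis lung carcinoma) cells, a mouse lung adenocarcinoma line, in wild-type male C57BL/6 hosts. The labels give host age as 6 to 8 without a unit. The tumours fall into 3 groups of 3, namely BTZ+anti-PDL1 (bortezomib at 0.5 mg/kg with an antibody against PDL1), anti-PDL1 (the antibody alone at 10 mg/kg) and isotype (a control antibody at 10 mg/kg). All agents were injected into the peritoneum, and tumours had grown to about 100 mm3 when the hosts were randomised. Bortezomib blocks the proteasome, and PDL1 engages the receptor PD-1 to hold T cells back. No group had BTZ alone, every tumour comes from the same cell line, and the control libraries are titled blank although their treatment label is isotype.

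MHC class II molecules present peptides from endocytosed proteins to CD4 T cells. An alpha and a beta chain pair in the endoplasmic reticulum on the invariant chain (CD74), travel to the endosome, and exchange the last fragment of CD74 for a peptide with the help of the H2-DM heterodimer, which H2-DO restrains. Dendritic cells, B cells and macrophages carry them constitutively or on activation, and many other cells, some tumour cells among them, make them under interferon-gamma. CIITA does not bind DNA itself. It docks onto factors that sit on the X and Y boxes shared by the promoters of these genes, and its own level sets much of theirs.

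The RefSeq promoter sequences used here (build GRCm38.p6, the same coordinates as mm10) covered 7 of the 10 genes. The windows held 250 bases before and 50 after the annotated start. A stretch of 100 bases, from 130 to 31 bases before the start, is shown 5′ to 3′ for 5 genes. They were chosen because it held the Y box core (ATTGG) and at most 30 bases of an annotated exon. Binding of factors or of CIITA to these letters was not measured here. Capitals mark ATTGG and, 20 to 45 bases before it, any match to the X box written as AGNNACNG or, for its end, as ATGATG.
H2-Eb1, chr17:34305737-34305836, plus strand: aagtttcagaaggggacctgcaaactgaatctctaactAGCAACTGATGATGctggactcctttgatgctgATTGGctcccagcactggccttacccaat
H2-DMb2, chr17:34145119-34145218, plus strand: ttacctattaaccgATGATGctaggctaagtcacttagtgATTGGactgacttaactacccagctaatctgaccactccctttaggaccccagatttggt
H2-Ob, chr17:34238775-34238874, plus strand: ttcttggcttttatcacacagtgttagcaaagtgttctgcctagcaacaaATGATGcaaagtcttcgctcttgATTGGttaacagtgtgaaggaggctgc
H2-Aa, chr17:34287854-34287953, minus strand: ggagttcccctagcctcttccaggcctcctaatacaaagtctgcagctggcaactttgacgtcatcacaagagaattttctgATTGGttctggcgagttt
H2-Oa, chr17:34092249-34092348, plus strand: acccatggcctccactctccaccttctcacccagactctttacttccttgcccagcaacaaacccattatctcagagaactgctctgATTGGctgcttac

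ATTGG lay on the strand of the gene in these 5 genes, which were chosen for it, and in H2-DMb1, starting 43 to 90 bases before the start. Over the whole windows, 7 of the 8 windows of these genes held it on that strand, a window of H2-DMa among them. The stretches of H2-Aa and H2-Oa held no X box match at the marked distance. Of all 32851 promoter windows, 22.1% held ATTGG on the strand of the gene and 37.4% on either strand. The X box form AGNNACNG, searched on both strands, occurred in 50.9% of all windows, and followed by ATTGG 28 to 42 bases on along 1 strand in 0.749%. Of the 8 windows of these genes, those of H2-DMb1 and H2-Eb1 held that pair. The letters ATGATG were read off these windows before they were counted, so their counts describe the windows only. On the strand of the gene and with ATTGG 20 to 45 bases on, ATGATG occurred in 4 of the 8 windows, those of H2-DMb1, H2-DMb2, H2-Ob and H2-Eb1, and in 0.161% of all windows. From the first base of ATGATG to that of ATTGG were 26 bases in both H2-DMb genes, 25 in H2-Eb1 and 23 in H2-Ob. In H2-Eb1 and H2-DMb1 ATGATG follows directly on AGNNACNG without overlap. The RefSeq start of H2-DMb2 lies 1942 bases inside the deposited gene, and both RefSeq windows of H2-DMa lie 9664 bases or more before the deposited start, so they do not show the promoter of the H2-DMa transcripts that begin there. The stretch of H2-DMb1 overlapped an annotated exon by 89 bases and is not printed.

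All 10 genes were detected in every tumour, over a range of levels that followed their roles. Deposited FPKM values, which are counts per length and depth, allow a comparison between genes. Cd74 had the highest level at 127 ± 52.1 FPKM (SD over 9 tumours), and the peptide-binding chains followed with H2-Eb1 at 76.4 ± 35.7, H2-Ab1 at 51.4 ± 21.6 and H2-Aa at 41.2 ± 17.4 FPKM. The peptide exchange genes stood lower, H2-DMb1 at 11.0 ± 3.80 and H2-DMa at 7.78 ± 2.62 FPKM. Ciita had 1.88 ± 0.687 FPKM, H2-DMb2 had 0.991 ± 0.216 FPKM, and the H2-DO genes came last, H2-Oa at 0.319 ± 0.146 and H2-Ob at 0.304 ± 0.0950 FPKM. The order from Cd74 to Ciita was the same in 9 of 9 tumours although the ranges of neighbours overlapped. Ciita stood above H2-DMb2 in 8 of 9, and H2-Oa above H2-Ob in 4 of 9, so the last pair could not be ordered.

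**Figure D1:**
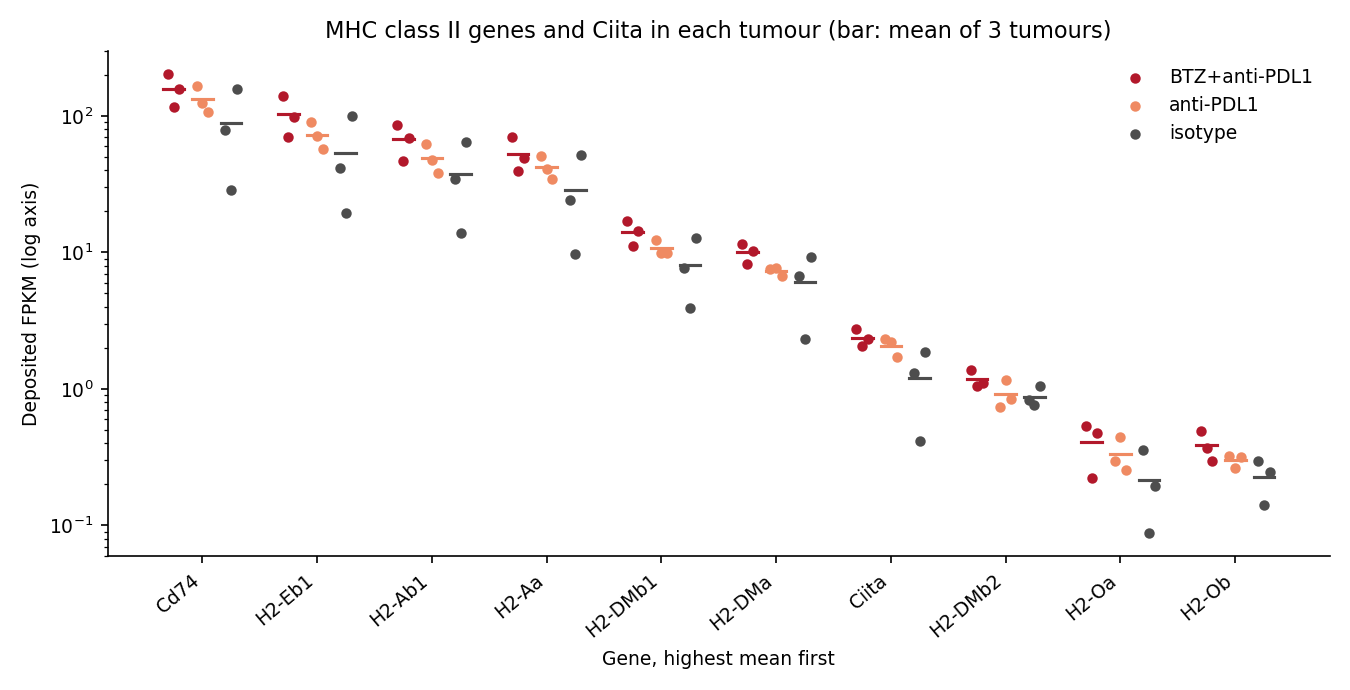
Deposited FPKM of each gene on a log axis, with 1 point per tumour and a bar at the mean of 3 tumours, for the BTZ+anti-PDL1, anti-PDL1 and isotype groups from left to right. The 10 genes span Cd74 at a mean of 127 FPKM to H2-Ob at 0.304 FPKM, and the isotype points spread most for Cd74, the peptide-binding chains and Ciita.

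H2-Aa and H2-Ab1 encode the alpha and beta chains of the I-A molecule. H2-Ab1 (ENSMUSG00000073421, mm10 chromosome 17, 34263209 to 34269418, plus strand) had 200, 108 and 163 CPM in the BTZ+anti-PDL1 tumours, 148, 111 and 91.0 CPM under anti-PDL1, and 81.4, 33.9 and 149 CPM in the isotype tumours, replicates 1 to 3. CPM here are counts over library size with TMM scaling, a correction for library composition. Isotype replicate 2 was the lowest of the 9 and BTZ+anti-PDL1 replicate 1 the highest, yet isotype replicate 3 reached the level of the treated tumours, so all 3 groups overlapped. H2-Aa (ENSMUSG00000036594, chromosome 17, 34282744 to 34287827, minus strand) had 177, 101 and 126 CPM in the BTZ+anti-PDL1, 130, 104 and 89.1 CPM in the anti-PDL1, and 62.3, 25.7 and 131 CPM in the isotype tumours. The same tumours were highest and lowest. From the lowest to the highest tumour the CPM of H2-Aa covered a 6.88-fold range, while the ratio of its FPKM to that of H2-Ab1 ran only from 0.696 to 0.899, so the mRNAs of both chains covaried.

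H2-Eb1 encodes the beta chain of the I-E molecule. C57BL/6 mice make no I-E, because their gene for its alpha chain is defective. H2-Eb1 (ENSMUSG00000060586, chromosome 17, 34305877 to 34316199, plus strand) had 164, 81.5 and 116 CPM in the BTZ+anti-PDL1 tumours, 107, 83.9 and 68.0 CPM under anti-PDL1, and 49.8, 23.9 and 117 CPM in the isotype tumours. It had the highest FPKM of the chains, and its ratio to H2-Ab1 was 1.22 to 1.63 over the 9 tumours. The alpha chain gene H2-Ea was listed at 0 counts in all 9 tumours, and at 3 counts the limit this allows is 0.139 to 0.162 CPM, a limit that covers counting error only.

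Cd74, the invariant chain that escorts new class II molecules and blocks their groove, lies on another chromosome (ENSMUSG00000024610, chromosome 18, 60803848 to 60812646, plus strand). It had 404, 229 and 313 CPM in the BTZ+anti-PDL1 tumours, 334, 249 and 217 CPM under anti-PDL1, and 159, 60.0 and 308 CPM in the isotype tumours. The order of tumours within each group was that of H2-Ab1, and the groups again overlapped through isotype replicate 3. Its FPKM ratio to H2-Ab1 was 2.08 in isotype replicate 2, the lowest, and 2.80 in anti-PDL1 replicate 3, the highest. By group the ratio was 2.26 to 2.48 in the BTZ+anti-PDL1, 2.63 to 2.80 in the anti-PDL1 and 2.08 to 2.43 in the isotype tumours, so every anti-PDL1 tumour lay above the other 6, a separation read off after the values were seen and not tested.

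H2-DMa and the 2 H2-DMb genes encode the alpha chain and alternative beta chains of H2-DM, the exchange factor that loads peptide. H2-DMa (ENSMUSG00000037649, chromosome 17, 34135182 to 34139101, plus strand) had 25.1, 17.8 and 22.6 CPM in the BTZ+anti-PDL1, 16.6, 16.8 and 14.9 CPM in the anti-PDL1, and 14.8, 5.30 and 19.9 CPM in the isotype tumours. It was the only one of the 10 genes whose BTZ+anti-PDL1 values all lay above the anti-PDL1 values, and both groups overlapped the isotype group, whose replicate 3 was above all anti-PDL1 tumours. H2-DMb1 (ENSMUSG00000079547, chromosome 17, 34153072 to 34160230, plus strand) had 27.98, 18.4 and 23.5 CPM in the BTZ+anti-PDL1, 20.6, 16.4 and 16.6 CPM in the anti-PDL1, and 12.9, 6.73 and 20.8 CPM in the isotype tumours. H2-DMb2 (ENSMUSG00000037548, chromosome 17, 34143307 to 34151553, plus strand) varied less than its neighbour, with 3.45, 2.62 and 2.76 CPM in the BTZ+anti-PDL1, 1.85, 2.94 and 2.15 CPM in the anti-PDL1, and 2.10, 1.98 and 2.61 CPM in the isotype tumours. Its values spanned 1.87-fold in all, against 4.16-fold for H2-DMb1, and its lowest tumour was anti-PDL1 replicate 1. The ratio of H2-DMb2 to H2-DMb1 FPKM was 0.193 in isotype replicate 2 and 0.0592 to 0.118 in the other 8 tumours. The H2-DMb genes are close copies, so reads shared between them may have been split by the authors' counting, and H2-DMb2 rests on 37 to 69 counts per tumour.

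H2-Oa and H2-Ob encode the chains of H2-DO, an inhibitor of H2-DM that is best known from B cells. H2-Oa (ENSMUSG00000024334, chromosome 17, 34092340 to 34095234, plus strand) had 23, 9 and 20 counts in the BTZ+anti-PDL1, 13, 19 and 12 counts in the anti-PDL1, and 15, 4 and 8 counts in the isotype tumours. H2-Ob (ENSMUSG00000041538, chromosome 17, 34238903 to 34245907, plus strand) had 53, 37 and 31 counts in the BTZ+anti-PDL1, 35, 28 and 37 counts in the anti-PDL1, and 31, 16 and 25 counts in the isotype tumours. These counts are too small for a difference between single tumours to be read, though isotype replicate 2 was again lowest in both. B cell genes ranged widely, from Ms4a1 with at most 5 counts in any tumour to Ighm, the IgM heavy chain, with 102 to 416 counts.

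Ciita (ENSMUSG00000022504, chromosome 16, 10488178 to 10527564, plus strand) had 14.3, 10.7 and 12.2 CPM in the BTZ+anti-PDL1 tumours, 12.2, 11.5 and 9.04 CPM under anti-PDL1, and 6.87, 2.28 and 9.67 CPM in the isotype tumours. All 3 BTZ+anti-PDL1 tumours lay above all 3 isotype tumours, and anti-PDL1 overlapped isotype only because its replicate 3 lay below isotype replicate 3. In isotype replicate 2 Ciita rested on 46 counts, and in the other 8 tumours on 131 to 285.

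BTZ+anti-PDL1 was first set against isotype, the comparison of the full treatment with the control antibody. All 10 genes had a higher fitted value in BTZ+anti-PDL1, where 49.7% of all genes did. Their log2 fold changes had a median of 0.84 (1.79-fold), against -0.0011 over all genes tested. No gene of the 10 was called by edgeR's quasi-likelihood test at an adjusted p under 0.05, nor by DESeq2. Limma on FPKM called none of the 8 it tested, since H2-Oa and H2-Ob fell under its FPKM filter. The background of calls was 0.00689% of the genes tested. At an unadjusted p under 0.05 there were 2 of the 10, Ciita and H2-Ob, both higher, where 4.42% of all genes were higher at that level. The groups did not overlap for Ciita and H2-DMb2, where 6.96% of all genes had every BTZ+anti-PDL1 value above every isotype value. For H2-DMb2 this was nearly a tie, between BTZ+anti-PDL1 replicate 2 (49 counts, 2.618 CPM) and isotype replicate 3 (50 counts, 2.614 CPM). In FPKM their order was reversed, 1.049 against 1.056, and the groups overlapped.

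Ciita averaged 12.4 ± 1.77 CPM in the BTZ+anti-PDL1 and 6.27 ± 3.73 CPM in the isotype tumours (SD, n = 3 each), a log2 fold change of 0.98 ± 0.422 (SE, edgeR adjusted p = 0.573) with a 95% interval of 0.018 to 1.95. H2-Eb1 averaged 120 ± 41.5 CPM in the BTZ+anti-PDL1 and 63.4 ± 47.9 CPM in the isotype tumours, with a log2 fold change of 0.93 ± 0.560. Cd74 averaged 315 ± 87.4 CPM in the BTZ+anti-PDL1 and 176 ± 125 CPM in the isotype tumours, with 0.84 ± 0.546. The 95% intervals of H2-Eb1 (-0.40 to 2.25) and Cd74 (-0.45 to 2.13) included 0. The other log2 fold changes were 0.88 ± 0.541 for H2-Aa, 0.83 ± 0.515 for H2-Ab1, 0.71 ± 0.396 for H2-DMa and 0.79 ± 0.355 for H2-DMb1. H2-DMb2 had 0.40 ± 0.253, the smallest, H2-Oa 0.93 ± 0.536 and H2-Ob 0.74 ± 0.327. The edgeR adjusted p of the 10 genes ran from 0.573 to 0.690. The size of the difference rested on which isotype tumours were kept. The median log2 fold change was 0.48 without isotype replicate 2 and 1.34 without isotype replicate 3. In either case 0 of 10 genes were called. Leaving out BTZ+anti-PDL1 replicate 1, anti-PDL1 replicate 1 and isotype replicate 3 together gave a median of 1.17, again with 0 of 10 called. Each of these had the most skeletal muscle RNA in its group.

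Anti-PDL1 against isotype asked what the antibody did alone. All 10 genes again had a higher fitted value in anti-PDL1, where 49% of all genes did, and the median of their log2 fold changes was 0.43 (1.35-fold). By edgeR 0 of 10 were called, against 0.0138% of all genes, and 0 of 10 had an unadjusted p under 0.05, where 3.01% of all genes were higher at that level. DESeq2 called 0 of the 10 as well, and limma 0 of the 8 it tested. Ciita averaged 10.9 ± 1.65 CPM in the anti-PDL1 and 6.27 ± 3.73 CPM in the isotype tumours (log2 fold change 0.80 ± 0.421, edgeR adjusted p = 0.770), and was the largest of the 10. H2-DMb2 averaged 2.32 ± 0.564 CPM in the anti-PDL1 and 2.23 ± 0.337 CPM in the isotype tumours (0.054 ± 0.255). Log2 fold changes of the peptide-binding chains were 0.56 ± 0.540 for H2-Aa, 0.40 ± 0.513 for H2-Ab1 and 0.45 ± 0.557 for H2-Eb1, and Cd74 had 0.60 ± 0.544. The 95% intervals of these 4 genes lay between -0.87 and 1.89. In 0 of the 10 genes did the groups fail to overlap, where 6.08% of all genes had every anti-PDL1 value above every isotype value. Without isotype replicate 2 the median was 0.13 and 8 of the 10 stayed above 0, with H2-DMa at -0.10 and H2-DMb2 at -0.020. Without isotype replicate 3 the median was 0.94, and without anti-PDL1 replicate 1 and isotype replicate 3, each the richest of its group in skeletal muscle RNA, 0.78. H2-DMb2 was also below 0 without anti-PDL1 replicate 2, at -0.15.

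BTZ+anti-PDL1 against anti-PDL1 asked what BTZ added. The median log2 fold change was the smallest of the 3 comparisons at 0.35 (1.27-fold), with all 10 genes higher in BTZ+anti-PDL1, where 50.8% of all genes were. By edgeR 0 of 10 were called, against 0.0138% of all genes, and 0 of 10 had an unadjusted p under 0.05, where 3.15% of all genes were higher at that level. DESeq2 called 0 of the 10, and limma 0 of the 8 it tested. H2-Eb1 had the largest log2 fold change at 0.48 ± 0.555, followed by H2-DMa at 0.44 ± 0.394 and H2-Ab1 at 0.43 ± 0.511. H2-DMa averaged 21.8 ± 3.73 CPM in the BTZ+anti-PDL1 and 16.1 ± 1.02 CPM under anti-PDL1, and was the 1 gene of the 10 without overlap, where 7.33% of all genes had every BTZ+anti-PDL1 value above every anti-PDL1 value. Ciita had the smallest at 0.19 ± 0.413 (95% interval -0.76 to 1.13), and Cd74 had 0.24 ± 0.541. The edgeR adjusted p ran from 0.886 to 0.969. BTZ+anti-PDL1 replicate 1, the highest tumour for all 10 genes, carried much of the difference, and without it the median was 0.16. Without the muscle-rich tumours of all 3 groups, BTZ+anti-PDL1 replicate 1 among them, it was 0.22. The comparisons share tumours, so the common direction of the 10 genes in all 3 is not independent.

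**Figure D2:**
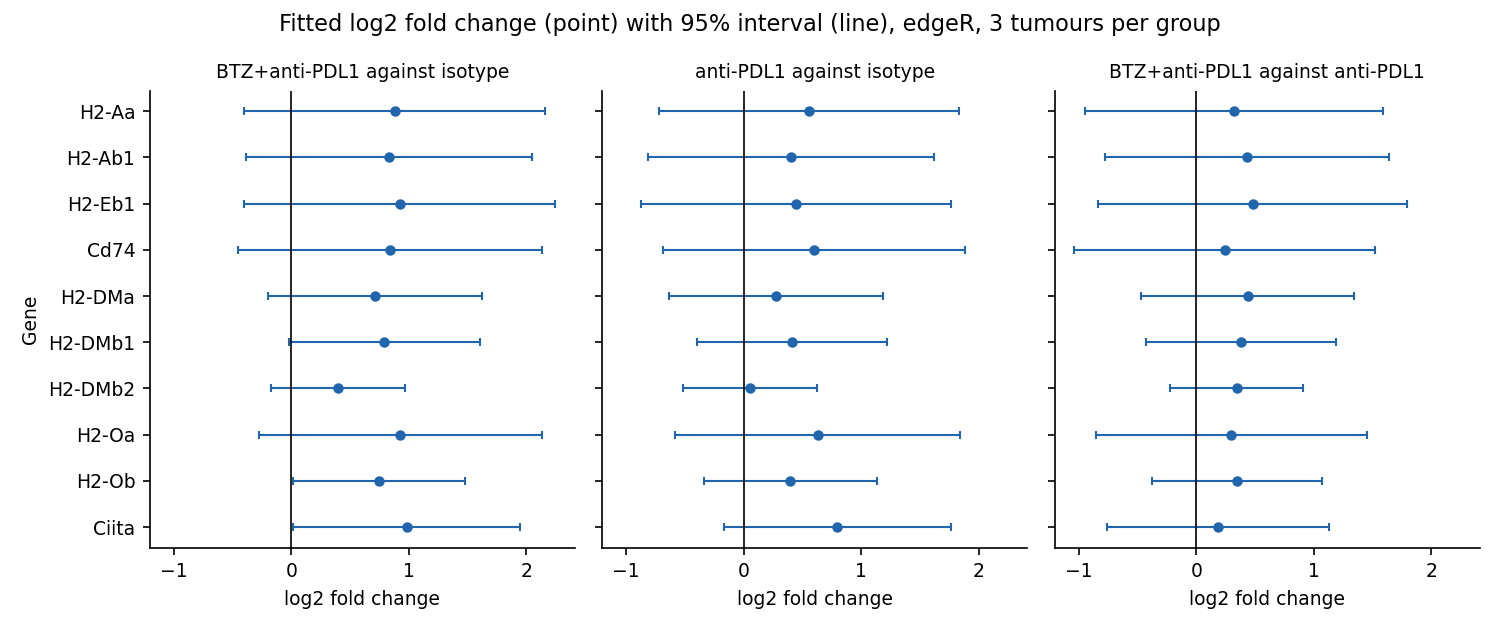
Fitted log2 fold change of each gene (point) with its 95% interval (line) in the 3 comparisons, positive where the group named first was higher, from edgeR with 3 tumours per group. All 30 points lie above 0, and the intervals of all but Ciita and H2-Ob in BTZ+anti-PDL1 against isotype include 0.

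The spread within groups was large for these genes and was set by the isotype group. The within-group SD of log2 CPM was 0.748 for Cd74, 0.746 for H2-Eb1, 0.735 for H2-Aa, 0.702 for H2-Ab1 and 0.639 for Ciita, against a median of 0.170 over all genes tested. Ciita lay at the 92.0 percentile of all genes for this spread and Cd74 at the 94.3 percentile. For Ciita the SD was 0.204 in the BTZ+anti-PDL1, 0.225 in the anti-PDL1 and 1.06 in the isotype tumours. For Cd74 it was 0.410 in the BTZ+anti-PDL1, 0.317 in the anti-PDL1 and 1.19 in the isotype tumours. H2-DMb2 was the exception, with 0.206 in the BTZ+anti-PDL1, 0.327 in the anti-PDL1 and 0.202 in the isotype tumours. Averaged over the 10 genes and centred on the 9 tumours, log2 CPM was 0.77, 0.073 and 0.42 in the BTZ+anti-PDL1 tumours, 0.24, 0.14 and -0.094 in the anti-PDL1 tumours, and -0.30, -1.45 and 0.20 in the isotype tumours. BTZ+anti-PDL1 replicate 1 was highest for 10 of 10 genes and isotype replicate 2 lowest for 9 of 10, the exception being H2-DMb2. Summed CPM of 8 skeletal muscle markers was 753, 14.6 and 3.43 in the BTZ+anti-PDL1 tumours. It was 960, 105 and 197 under anti-PDL1, and 3.31, 4.90 and 2726 in the isotype tumours. In every group the tumour with the highest sum was also highest for H2-Aa, H2-Ab1, H2-Eb1, Cd74, H2-DMb1 and Ciita. For H2-DMa, H2-DMb2, H2-Oa and H2-Ob this did not hold in every group. The part of muscle content in these levels was not tested.

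Markers of the cells that can bear class II, and beside them those of T cells, followed these values in part. Isotype replicate 2 had the lowest summed CPM of 8 dendritic cell markers (31.1), of 8 macrophage markers (826) and of 8 T cell markers (4.50) among the 9 tumours, but the lowest sum of B cell markers was in isotype replicate 1. Dendritic cell markers summed to 50.4 to 57.9 CPM in the BTZ+anti-PDL1, 41.96 to 51.7 CPM in the anti-PDL1 and 31.1 to 43.9 CPM in the isotype tumours, with no marker at 0. Macrophage markers, also with none at 0, summed to 1285 to 1530 CPM in the BTZ+anti-PDL1, 1437 to 1627 CPM in the anti-PDL1 and 826 to 1564 CPM in the isotype tumours. In BTZ+anti-PDL1 against anti-PDL1, where all 10 class II pathway genes were higher, 7 of the 8 macrophage markers were lower, at a median log2 fold change of -0.15. Of this list Adgre1 had an unadjusted p under 0.05, in anti-PDL1 against isotype (0.54 ± 0.219, edgeR adjusted p = 0.763). B cell markers summed to 11.1 to 18.5 CPM in the BTZ+anti-PDL1, 12.5 to 22.4 CPM in the anti-PDL1 and 6.14 to 16.2 CPM in the isotype tumours, with Ms4a1 or Cr2 at 0 in some tumours and 3 of the 8 markers passing the filter. T cell markers summed to 22.9 to 37.4 CPM in the BTZ+anti-PDL1, 22.1 to 28.2 CPM in the anti-PDL1 and 4.50 to 27.5 CPM in the isotype tumours, with Cd3g at 0 in isotype replicate 2. Trac, the T cell receptor alpha constant gene, was the T cell marker with an unadjusted p under 0.05 in BTZ+anti-PDL1 against isotype (1.27 ± 0.540, edgeR adjusted p = 0.569). Cd74 per unit of the macrophage sum was 0.0726 in isotype replicate 2 and 0.132 to 0.264 in the other 8 tumours, and per unit of the dendritic cell sum it was 1.93 there and 4.17 to 7.23 in the others. Per unit of the B cell sum it was 8.24 in isotype replicate 2 and 14.9 to 26.0 in the others. Per unit of the T cell sum the order was not the same, with 13.3 in isotype replicate 2 and 7.89 to 13.3 in the others. Fewer cells of a type and less RNA per cell cannot be told apart in bulk tumour RNA, and the part of cell content in the differences between groups was not tested.

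Of the dendritic cell markers, 7 of 8 were higher in BTZ+anti-PDL1 than in isotype and 0 were called. Of the list, 5 markers had an unadjusted p under 0.05, all higher, where 4.42% of all genes were higher at that level: Xcr1 and Clec9a, of the cross-presenting subset, Flt3, Itgax and Siglech. Siglech was also under that level in anti-PDL1 against isotype (1.63 higher on the log2 scale). Xcr1, Clec9a and Siglech were sparse, with their lowest values (0.0990, 0.247 and 0.198 CPM) in isotype replicate 2. Zbtb46, a transcription factor of classical dendritic cells, went the other way with a log2 fold change of -0.11 ± 0.162 in BTZ+anti-PDL1 against isotype. In BTZ+anti-PDL1 against anti-PDL1 it had -0.37 ± 0.162 (unadjusted p = 0.0470, edgeR adjusted p = 0.854), averaging 6.14 ± 0.962 CPM in the BTZ+anti-PDL1 and 7.93 ± 0.791 CPM in the anti-PDL1 tumours without overlap. Xcr1 averaged 1.09 ± 0.107 CPM in the BTZ+anti-PDL1 and 0.382 ± 0.266 CPM in the isotype tumours, and Itgax 34.1 ± 5.56 CPM in the BTZ+anti-PDL1 and 22.5 ± 2.68 CPM in the isotype tumours. The tumour cells themselves were labelled lung adenocarcinoma. Of the epithelial markers Krt18 had 56.6 to 113 CPM and Krt8 3.64 to 26.6 CPM over the 9 tumours, while Epcam had 0 to 5 counts. The other epithelial markers differed in opposite directions in BTZ+anti-PDL1 against isotype, both at an unadjusted p under 0.05 and neither called. Krt19 had 2, 1 and 5 counts in the BTZ+anti-PDL1, 19, 24 and 13 counts in the anti-PDL1, and 2, 80 and 23 counts in the isotype tumours, so its fitted log2 fold change of -3.61 ± 1.11 (edgeR adjusted p = 0.520) rests on few counts and on isotype replicates 2 and 3. Against anti-PDL1 it had -2.69 ± 1.13 (unadjusted p = 0.0421). Cdh1, the gene of E-cadherin, averaged 6.27 ± 3.12 CPM in the BTZ+anti-PDL1 and 2.61 ± 1.66 CPM in the isotype tumours, with overlap (1.26 ± 0.501, edgeR adjusted p = 0.558). Whether the class II RNA came from LLC cells or from host cells was not tested.

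**Figure D3:**
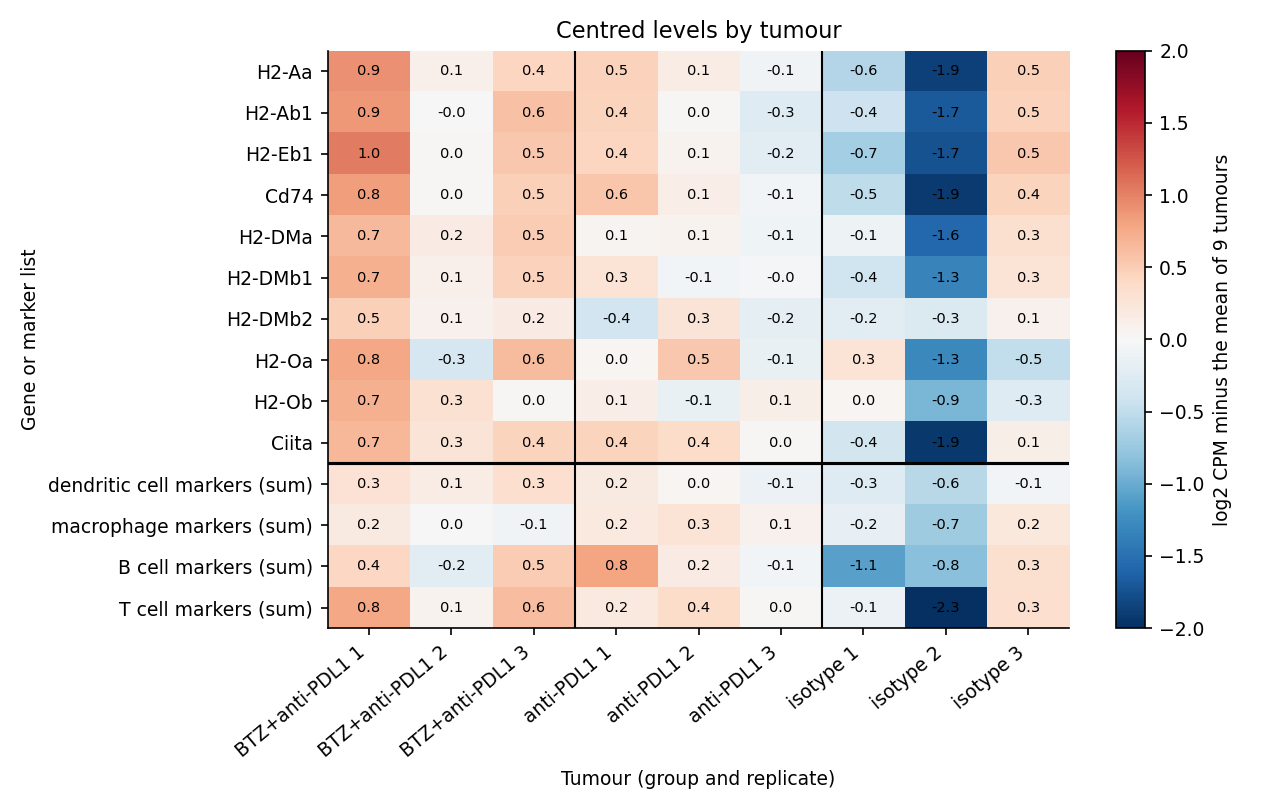
Level of each gene (above the line) and log2 of the summed CPM of 4 marker lists (below it) in each of 9 tumours, as log2 units from the mean of the 9, with BTZ+anti-PDL1, anti-PDL1 and isotype from left to right and colours that stop at 2 units either way. Isotype replicate 2 is the lowest column for 9 of the 10 genes and BTZ+anti-PDL1 replicate 1 the highest for all 10.

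The genes fell into 2 kinds by how they varied together over the tumours. Among H2-Aa, H2-Ab1, H2-Eb1, Cd74, H2-DMa, H2-DMb1 and Ciita, Pearson's r of log2 CPM over 9 tumours was 0.937 to 0.997 in all 21 pairs, and 0.915 to 0.996 once the mean of each group was removed. H2-DMb2 reached at most 0.638 with any other gene, and the sparse H2-Oa and H2-Ob 0.701 to 0.831 with genes other than H2-DMb2. These values describe tumours that share their cell content, and isotype replicate 2 stretches them.

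Ciita was set against each of the other 9 genes over the 9 tumours, with p-values from two-sided exact permutation tests adjusted over the 9 pairs. For Cd74 r was 0.973 (adjusted p = 0.000804) and Spearman's rho 0.933 (p = 0.000750, adjusted p = 0.00675). H2-Ab1 had an r of 0.948 (exact p = 0.000446, adjusted p = 0.000804) and a rho of 0.900 (exact p = 0.00203, adjusted p = 0.00913). H2-DMa had an r of 0.958 (exact p = 0.00133, adjusted p = 0.00199) and a rho of 0.833 (exact p = 0.00827, adjusted p = 0.0149). The relation to H2-DMb2 did not pass, with an r of 0.556 (exact p = 0.107) and a rho of 0.617 (exact p = 0.0857, adjusted p = 0.0964). The other 5 had r from 0.794 (H2-Oa) to 0.969 (H2-Aa) with adjusted permutation p of at most 0.0189. Of these 5 only H2-Ob failed by rank, with a rho of 0.533 (exact p = 0.148). How many of all genes tested would pass the same test was not counted. Genes outside the list stood above all 9 in r with Ciita, among them H2-Q7 (0.990) and Cxcl9 (0.984). A high r with Ciita was therefore not particular to the class II genes. Isotype replicates 2 and 1 lay farthest from the median of Ciita. Without both, r was 0.758 for Cd74 (exact permutation p = 0.0476, n = 7), 0.758 for H2-Ab1 (exact p = 0.0514) and 0.676 for H2-DMa (exact p = 0.0982), so the relation rests in part on those tumours. For H2-Ab1, H2-Eb1, H2-DMa, H2-DMb1 and H2-Ob it no longer passed an unadjusted p of 0.05, and for Cd74, H2-Aa and H2-Oa it did. With group means removed r was 0.967 for Cd74 and 0.989 for H2-DMa. FPKM of H2-Ab1 per FPKM of Ciita ran only from 21.5 to 34.5 over the tumours, while Ciita alone covered 6.27-fold in CPM.

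**Figure D4:**
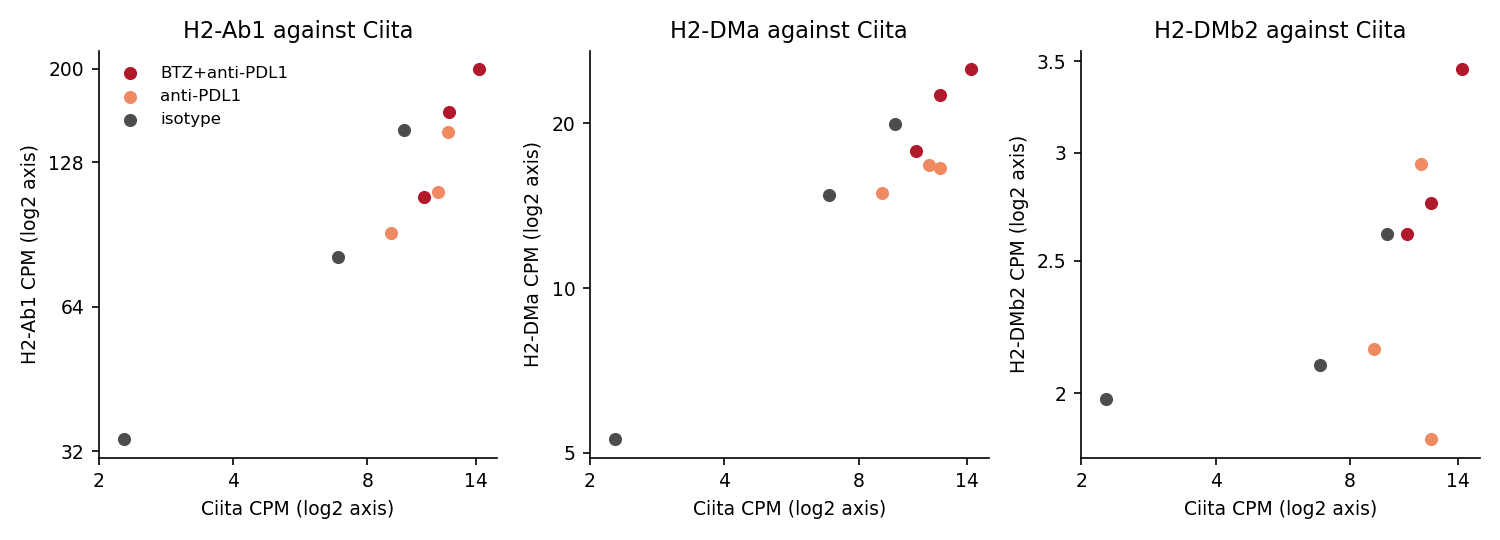
CPM of H2-Ab1, H2-DMa and H2-DMb2 against CPM of Ciita on log2 axes, 1 point per tumour coloured by group. H2-Ab1 and H2-DMa climb with Ciita (r of 0.948 and 0.958 over 9 tumours), the lowest point being isotype replicate 2, while H2-DMb2 is scattered (r of 0.556).

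None of the factors around CIITA was called. Of 12 promoter factors and CIITA regulators, 0 passed in any comparison. In BTZ+anti-PDL1 against isotype 7 were higher and 5 lower, where 49.7% of all genes were higher, and the median log2 fold change was 0.081. Of the 12, 2 were higher at an unadjusted p under 0.05, where 4.42% of all genes were. These were Irf1, an interferon-induced activator of the Ciita gene, and Rfxank, a subunit of the RFX complex on the X box. Irf1 averaged 96.7 ± 17.5 CPM in the BTZ+anti-PDL1 and 66.9 ± 14.7 CPM in the isotype tumours (0.53 ± 0.181, edgeR adjusted p = 0.540). Rfxank averaged 23.2 ± 1.71 CPM in the BTZ+anti-PDL1 and 19.0 ± 0.875 CPM in the isotype tumours (0.29 ± 0.104). Rfx5, the DNA-binding RFX subunit, had 0.0021 ± 0.119. Irf1 had 0.29 ± 0.181 and Rfx5 -0.15 ± 0.119 in anti-PDL1 against isotype, and 0.25 ± 0.180 and 0.16 ± 0.119 in BTZ+anti-PDL1 against anti-PDL1.

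The 8 genes that process antigen and the invariant chain also had no call in any comparison. Sppl2a, the membrane protease that removes the last stub of CD74, averaged 159 ± 6.27 CPM in the BTZ+anti-PDL1, 151 ± 7.52 CPM in the anti-PDL1 and 133 ± 12.6 CPM in the isotype tumours. Its log2 fold change was 0.26 ± 0.0798 in BTZ+anti-PDL1 against isotype (unadjusted p = 0.00883, edgeR adjusted p = 0.508) and 0.19 ± 0.0798 in anti-PDL1 against isotype. It was the only one of the 8 at an unadjusted p under 0.05 in either. Ctss, the cathepsin that trims CD74, had 0.53 ± 0.288 and the thiol reductase Ifi30 0.28 ± 0.201 in BTZ+anti-PDL1 against isotype, both within the spread between tumours. In BTZ+anti-PDL1 against anti-PDL1 3 of the 8 were higher and 5 lower, at a median of -0.046.

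On chromosome 17 the class II genes sit side by side with genes of class I processing. Tap1 and Tap2, the peptide transporter, and Psmb8 and Psmb9, subunits of the immunoproteasome, lie between H2-DMb1 and H2-Ob. Over 9 tumours their log2 CPM had an r of 0.894 to 0.967 with the mean of the 10 class II pathway genes, within the 0.641 to 0.987 of the 8 members on this chromosome, which contribute to that mean. Tap1 averaged 46.6 ± 11.0 CPM in the BTZ+anti-PDL1 and 27.7 ± 10.5 CPM in the isotype tumours (0.75 ± 0.288, unadjusted p = 0.0307, edgeR adjusted p = 0.549). Neighbours outside antigen processing had an r of at most 0.521. Brd2, a chromatin reader between H2-Oa and H2-DMa, had an r of 0.394 and covered 1.16-fold from its lowest to its highest tumour, and Rxrb covered 1.12-fold. Btnl2, past H2-Eb1, was sparse at a mean of 0.364 CPM and had a log2 fold change of -1.89 ± 0.694 in BTZ+anti-PDL1 against isotype (edgeR adjusted p = 0.543). H2-Eb2 did not pass the filter on low counts.

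**Figure D5:**
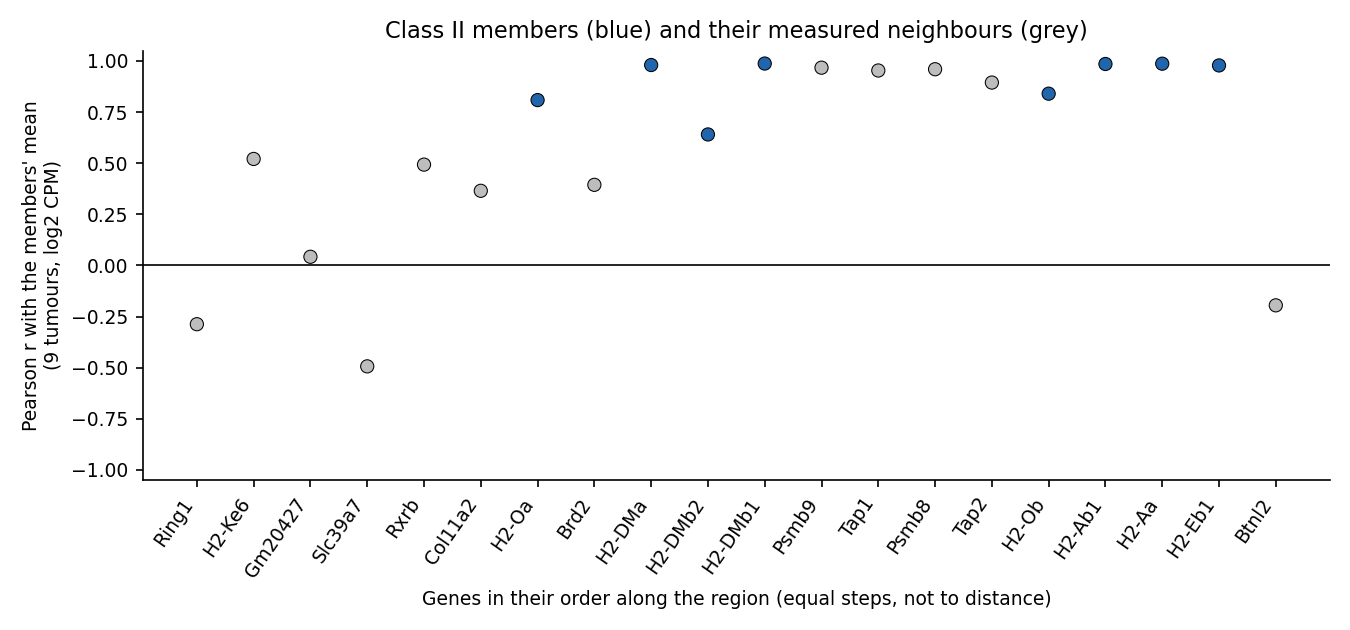
Pearson's r over 9 tumours between the log2 CPM of each tested gene and the mean of the 10 class II pathway genes, with genes in their order along the region at equal steps. Class II members (blue, part of that mean) and the 4 class I processing genes between them (grey) reach 0.641 to 0.987, and the 8 other neighbours (also grey) -0.494 to 0.521.

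Among 12289 other genes with a mean of at least 1 CPM, those most like the mean of the 10 by Pearson's r over 9 tumours were Adgrg5 (0.988), H2-Q7 (0.986), Skap1 (0.979), Rasal3 (0.979) and Xcl1 (0.978). Tbxas1, Cd2, Cd6, Arhgap15 and Gbp5 followed at 0.971 to 0.976. For Ciita alone they were H2-Q7 (0.990), Arhgap4 (0.988), Ms4a6b (0.986), Skap1 (0.985) and Cxcl9 (0.984).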

How the data were processed

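RNA-seq of 9 tumours was used. The deposited table gives, per the file headers, a raw count and an FPKM value for each gene and tumour, both made by the authors. Per the submitters' processing notes, HISAT2 2.0.4, StringTie 1.3.3b and mm10 were used, with no roles given. The counting tool, annotation and strand setting are not given in the sources used here, so overlapping genes (Psmb9 with Tap1) and close copies (the H2-DMb and other H2 genes) are uncertain. Groups follow the treatment labels, and columns were assigned by title, those of the combination by treatment name plus number. Replicates are separate tumours. Totals were 18516282 to 21509953 counts, and intervals cover the spread between tumours.

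The count test was that of edgeR 4.0.16, run under R 4.3.3 (TMM scaling, filterByExpr with a minimum count of 10, 1 model of 3 groups, robust quasi-likelihood F test, Benjamini-Hochberg adjustment over 14506 genes, called at an adjusted p under 0.05). The fit was tested on simulated data. SE is the absolute log2 fold change over the square root of F. Log2 CPM used a prior count of 2. Alternatives were DESeq2 1.42.0, limma 3.58.1 on log2(FPKM + 1) and log2(FPKM + 0.1) where FPKM reached 1 in 3 tumours, RLE scaling, no filter, 6 tumours only, a replicate block, leaving out tumours, and summing the H2-DMb counts. Of further lists, genes at an unadjusted p under 0.05 are named, besides Irf1, Rfx5, Ctss, Ifi30 and Cd4. The cell type markers, Brd2 and Rxrb were named after their values were seen. March1 and March8, written like dates in the table, and H2-Ea were matched by gene ID. The members and lists were chosen with earlier results of these data known. Sequences are RefSeq's. Promoters of H2-Ab1, Cd74 and Ciita were not used here.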

Additional observations from a re-analysis of the deposited data

How the results depend on the processing

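Of 522 refits of single genes under the alternatives, 519 kept their direction and 0 reached an adjusted p under 0.05 (smallest 0.140). The 3 exceptions, all in anti-PDL1 against isotype, were H2-DMa (-0.10) and H2-DMb2 (-0.020) without isotype replicate 2 and H2-DMb2 (-0.15) without anti-PDL1 replicate 2. With 1 tumour left out in that comparison H2-DMa ran from -0.10 to 0.68 and H2-DMb2 from -0.15 to 0.19. The count of these genes called was 0 in every alternative and comparison. With 1 tumour left out the median log2 fold change ran from 0.48 to 1.34 in BTZ+anti-PDL1 against isotype, 0.13 to 0.94 in anti-PDL1 against isotype and 0.16 to 0.51 in BTZ+anti-PDL1 against anti-PDL1. Over all genes, calls in the same 3 comparisons were 1, 2 and 2. They were 111, 15 and 60 with DESeq2, 0 in each without the 3 muscle-rich tumours, and 0, 1 and 1 with the replicate number as a block. Calls ran from 0 to 20, 1 to 4 and 1 to 7 with 1 tumour left out. Without a filter they were 6 in the first and 4 in the third, with only the 6 tumours compared 0 in the first and 12 in the third, and on FPKM 3 in the first with either pseudocount. The cause of these shifts was not tested. Same-numbered tumours did not pair (r of their deviations -0.434 to 0.393), and with the block the medians were 0.95, 0.61 and 0.34. Without isotype replicate 2, Ciita's Pearson r with H2-DMa (0.728), H2-Oa (0.426) and H2-Ob (0.462) no longer passed. By Spearman's rho without that tumour, only Cd74 (adjusted permutation p = 0.0411) and H2-Ab1 (0.0482) passed. H2-Aa (0.0688), H2-Eb1, H2-DMb1 and H2-DMa (0.0662 each) and H2-Oa (0.124) no longer did by rank. With the X box written ATGATG, a form chosen after the data were seen, 4 windows held the pair where AGNNACNG gave 2. With 3 tumours a group, the 95% intervals of the peptide-binding chains span over 2 log2 units, and H2-Oa and H2-Ob rest on few counts.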

Other observations

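The receptors that meet class II on T cells were sparse. Neither they nor the co-stimulators beside it on presenting cells were called in any of the 3 comparisons. Cd4, which binds class II, averaged 2.84 ± 1.49 CPM in the BTZ+anti-PDL1, 3.30 ± 0.575 CPM in the anti-PDL1 and 1.94 ± 1.37 CPM in the isotype tumours (SD over 3 tumours). The log2 fold change of Cd4 was 0.55 ± 0.526 in BTZ+anti-PDL1 against isotype, 0.77 ± 0.524 in anti-PDL1 against isotype and -0.22 ± 0.515 in BTZ+anti-PDL1 against anti-PDL1. Cd40, which receives help from CD4 T cells, averaged 6.28 ± 0.491 CPM in the BTZ+anti-PDL1 and 4.53 ± 1.09 CPM in the isotype tumours, and these groups did not overlap (0.47 ± 0.202, unadjusted p = 0.0427, edgeR adjusted p = 0.569). Cd80, a CD28 ligand, averaged 4.91 ± 0.597 CPM in the anti-PDL1 and 7.66 ± 2.41 CPM in the isotype tumours (-0.64 ± 0.230, unadjusted p = 0.0197, edgeR adjusted p = 0.763). March1, a ubiquitin ligase that removes class II from the surface, averaged 18.5 ± 0.900 CPM in the anti-PDL1 and 12.9 ± 3.10 CPM in the isotype tumours, without overlap (0.52 ± 0.172, unadjusted p = 0.0134, edgeR adjusted p = 0.763). Lag3 and Cd4 were the 2 tested genes of the T cell partner list, since Cd40lg was under the filter.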
